A study of Mus musculus with 14 samples.

Results

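DNA methylation is written, copied and removed by a small set of proteins, and chromatin accessibility near 8 of their genes was followed while GATA6 drove mouse embryonic stem (ES) cells towards primitive endoderm (PrE). Dnmt1 copies methylation onto newly replicated DNA, guided there by Uhrf1, which recognises hemimethylated CpG sites. Dnmt3a and Dnmt3b add methylation to unmethylated DNA, and Dnmt3l is a catalytically inactive partner that stimulates both. Tet1, Tet2 and Tet3 oxidise methylated cytosine, the first step in its removal. ES cells are known for expressing Tet1 and Tet2 and for lower methylation in 2i than in serum medium, and the extraembryonic lineages for keeping less methylation than the epiblast (Epi).

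The members were regions of accessible chromatin whose nearest protein-coding transcription start site (TSS), within 50 kb, belonged to Dnmt1, Uhrf1, Dnmt3a, Dnmt3b, Dnmt3l, Tet1, Tet2 or Tet3. Of 124598 regions in the whole time course, 100 met this rule, of which 19 were promoter regions, with a midpoint within 1 kb of a TSS or covering a TSS, and 81 were distal. Dnmt1 had 5 regions, Uhrf1 2, Dnmt3a 23, Dnmt3b 5, Dnmt3l 7, Tet1 24, Tet2 25 and Tet3 9. Regions are named below by their gene and by the distance in bp from their midpoint to the nearest TSS, negative when upstream, in GRCm38 coordinates.

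ATAC-seq marks accessible DNA through the adapters that a transposase leaves in it, and was run on KH2 cells, an ES cell line labelled C57BL/6. All cells, those at 0 h included, carried the transgene TRE:GATA6-DSREd2, a GATA6 construct switched on by doxycycline (Dox). Cells at 0 h were in 2i medium with LIF and without Dox. Cells at 2, 4 and 8 h were in serum medium with LIF and Dox at 1 µg/mL, and those at 16, 24 and 48 h had Dox for 12 h and then serum medium without it. There were 2 libraries of 50000 cells per time point and 14 in all, from 1 cell line. The study describes its replicates as performed independently without saying whether that means separate cultures. The p-values come from reordering time over the 14 libraries as if each were a separate unit. The spread between the 2 libraries of a time point may be technical. Since no library came from serum medium that was never given Dox, the change of medium and GATA6 cannot be told apart in any comparison with 0 h.

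The lists held 55588 to 65073 peaks per library, which do not give the sequencing depth, so absence of a call does not show that a region was closed. In bulk cells, fewer cells with an open region and less opening per cell cannot be told apart. PrE marker genes checked the labels: of 9, 7 gained distal calls with time, all but Gata6 and Sox7. Of the 141 regions of all 9, 53 were gained at 48 h against 10 lost. Epi marker genes had 24 of 148 regions gained and 30 lost, and Klf4 alone of those 9 genes rose. Trophectoderm marker genes had 12 of 67 regions gained and 13 lost with Tfap2c falling, mesoderm genes 5 of 25 gained and 5 lost, and fibroblast genes 3 of 24 gained and 5 lost with Col1a2 rising. Over all regions 14.5% were gained and 16.6% lost at 48 h, and over all genes tested 11.4% rose and 13.0% fell in distal calls. The part of these marker shifts in the results below was not tested.

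The sequences of the regions on which the results turn are shown first, as the 200 bp around each region's centre on the plus strand of GRCm38.p6. The first 6 are distal regions whose calls changed over time, and capitals mark a match on either strand to a GATA hexamer (AGATAA, the variant of it AGATAG, the form with a leading T, TGATAA, and its variant TGATAG), the octamer core (ATGCAAA), the AP-1 site (TGANTCA) or the Esrrb site (AAGGTCA).
Dnmt3a, 2705 bp downstream, chr12:3888055-3888254: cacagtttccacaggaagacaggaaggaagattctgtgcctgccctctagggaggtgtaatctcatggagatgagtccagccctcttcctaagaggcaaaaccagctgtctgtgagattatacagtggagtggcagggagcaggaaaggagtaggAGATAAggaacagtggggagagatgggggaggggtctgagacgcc
Dnmt3b, 11209 bp downstream, chr2:153660727-153660926: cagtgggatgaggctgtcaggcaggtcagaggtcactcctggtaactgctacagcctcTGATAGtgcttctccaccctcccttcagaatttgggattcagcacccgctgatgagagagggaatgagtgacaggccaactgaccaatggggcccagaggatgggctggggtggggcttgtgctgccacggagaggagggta
Dnmt3l, 1285 bp downstream, chr10:78056521-78056720: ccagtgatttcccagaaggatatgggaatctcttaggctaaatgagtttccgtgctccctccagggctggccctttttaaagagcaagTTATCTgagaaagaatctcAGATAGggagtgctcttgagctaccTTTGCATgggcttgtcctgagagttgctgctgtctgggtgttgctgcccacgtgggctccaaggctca
Tet1, 32646 bp upstream of a start near the 3′ end, chr10:62847087-62847286: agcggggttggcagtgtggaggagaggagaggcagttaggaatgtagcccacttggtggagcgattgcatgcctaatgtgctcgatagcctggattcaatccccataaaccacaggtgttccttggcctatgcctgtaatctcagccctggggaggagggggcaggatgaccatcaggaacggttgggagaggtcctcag
Tet2, 26859 bp downstream, chr3:133517410-133517609: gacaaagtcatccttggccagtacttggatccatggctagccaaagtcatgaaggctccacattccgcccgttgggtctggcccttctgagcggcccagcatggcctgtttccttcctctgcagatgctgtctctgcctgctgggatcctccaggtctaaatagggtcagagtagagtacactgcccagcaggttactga
Tet2, 19544 bp downstream, chr3:133524725-133524924: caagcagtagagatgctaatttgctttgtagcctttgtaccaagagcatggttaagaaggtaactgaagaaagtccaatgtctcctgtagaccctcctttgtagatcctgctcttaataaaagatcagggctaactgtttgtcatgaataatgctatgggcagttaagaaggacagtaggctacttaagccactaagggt

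Of these 6 windows, 3 held a GATA hexamer. In Dnmt3l the matches were TTATCT at bases 89 to 94, AGATAG at 108 to 113 and the octamer core at 133 to 139, counted from 1 at the left end, and none overlapped another. Across all regions, the same windows held a GATA hexamer in 35.5%, the octamer core in 5.49%, the AP-1 site in 11.6% and the Esrrb site in 5.54%. The next 2 windows are promoter regions gained or lost at 48 h, and in them capitals mark CpG, the dinucleotide that these enzymes act on.
Dnmt3a, 755 bp downstream, chr12:3892400-3892599: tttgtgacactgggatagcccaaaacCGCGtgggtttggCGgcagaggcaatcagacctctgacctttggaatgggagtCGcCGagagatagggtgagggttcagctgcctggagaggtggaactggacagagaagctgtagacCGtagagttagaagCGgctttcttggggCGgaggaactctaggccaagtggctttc
Tet1, 153 bp upstream, chr10:62893040-62893239: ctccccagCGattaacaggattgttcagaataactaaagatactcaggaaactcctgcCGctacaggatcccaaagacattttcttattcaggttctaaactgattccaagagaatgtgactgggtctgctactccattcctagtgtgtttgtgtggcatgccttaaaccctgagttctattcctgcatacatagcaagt

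The gained Dnmt3a window held 8 CpG and the lost Tet1 window held 2, while the median was 13 in the windows of all promoter regions as in those of the 19 member promoters. Of 15 RefSeq promoter windows of 300 bp for the 8 genes (GRCm38.p6), 7 had a CpG observed-to-expected ratio of at least 0.6, against 35.8% of 32851 promoters.

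**Figure D1:**
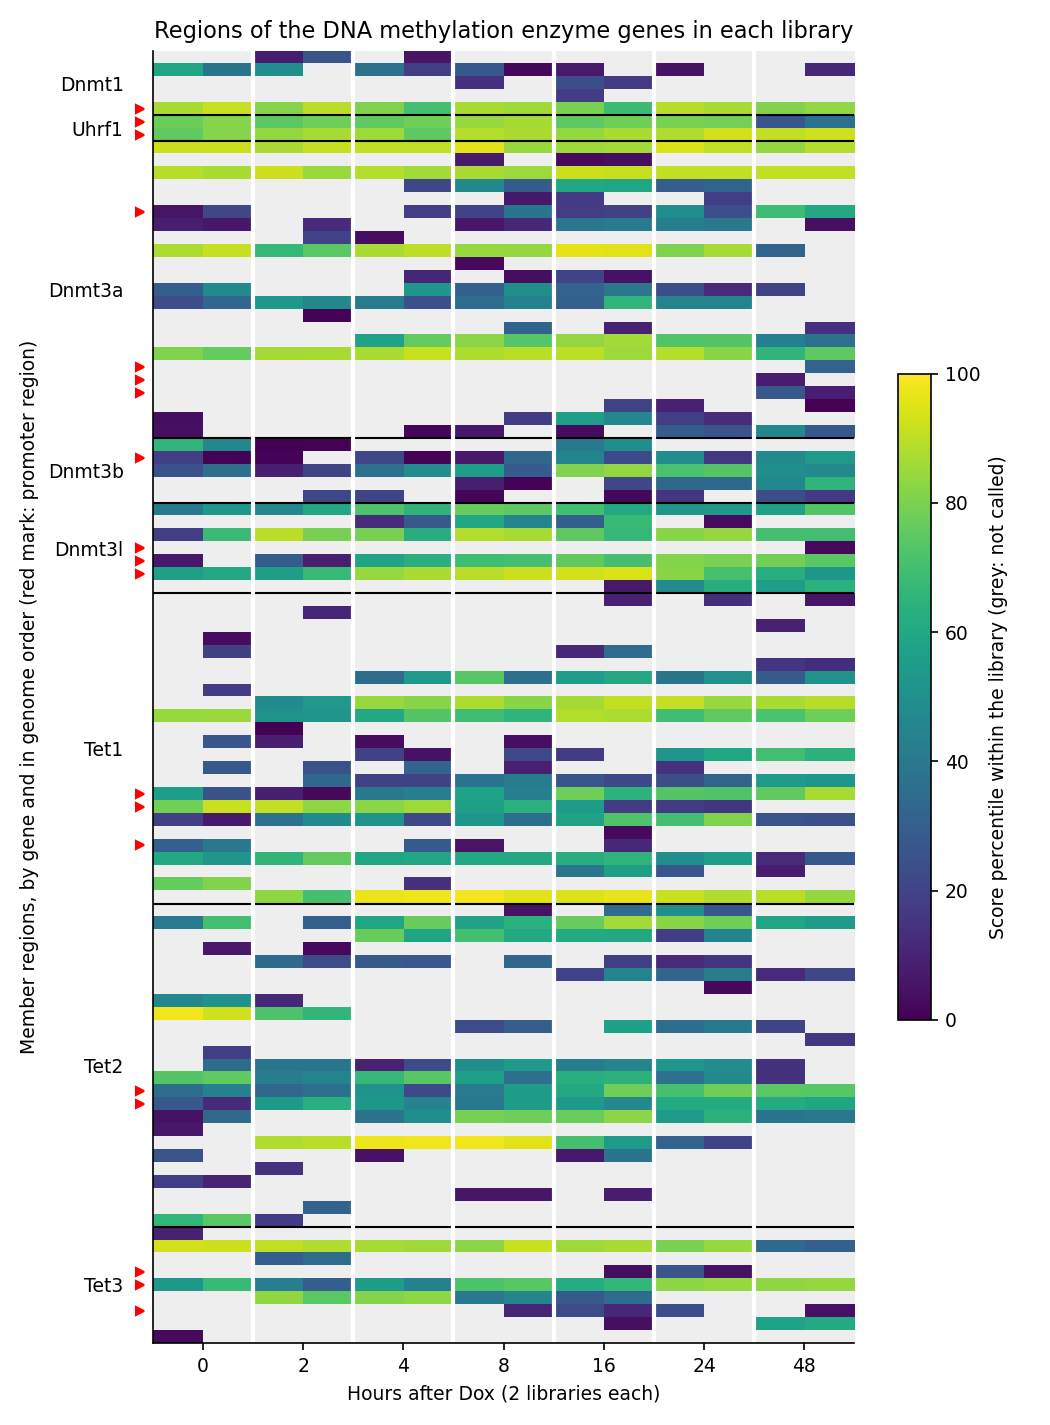
Score percentile of each of the 100 regions (rows, grouped by gene) in each of the 14 libraries (columns, by hours after Dox), with grey where a region was not called and red marks at promoter regions. Between 40 regions (a 2 h library) and 64 regions (a 16 h library) were called.

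Accessible regions near the 8 genes were most numerous in the middle of the time course. The 0 h libraries called 43 and 44 of the 100 regions, those of 2 h 40 and 43, of 4 h 43 and 48, of 8 h 50 and 54, of 16 h 55 and 64, of 24 h 54 and 52, and of 48 h 45 and 46. All libraries from 8 to 24 h lay above both 0 h libraries, and 48 h lay just above 0 h. Over all 124598 regions, the 0 h libraries called 44.6% on average, those of 16 h 48.6%, and those of 24 and 48 h 42.8% and 42.7%. The rise from 0 h was in distal regions, of which 30 and 32 were called at 0 h, 42 and 49 at 16 h, and 32 and 31 at 48 h, whereas promoter calls stayed between 10 and 15 of 19.

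Gained regions were those that both libraries of a later time point called and neither 0 h library did, and lost regions the reverse. At 2 h the members gained 7 regions and lost 6, where 8.64% of all regions were gained and 6.25% lost. The 4 h libraries added 11 and lacked 6 (10.1% and 7.37% of all regions), those of 8 h 13 and 6 (11.1% and 9.99%), and those of 16 h 16 and 5 (13.3% and 9.71%). By 24 h the count was 16 gained and 7 lost (11.6% and 13.2% of all regions). By 48 h it was 13 gained and 9 lost, against 14.5% and 16.6%. Gained shares lay below those of all regions at 2 and 48 h and above them from 4 to 24 h. Lost shares lay below them at every time point, barely so at 2 h. No test was run on these counts, because an exact test of 2 against 2 libraries cannot reach the threshold.

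**Figure D2:**
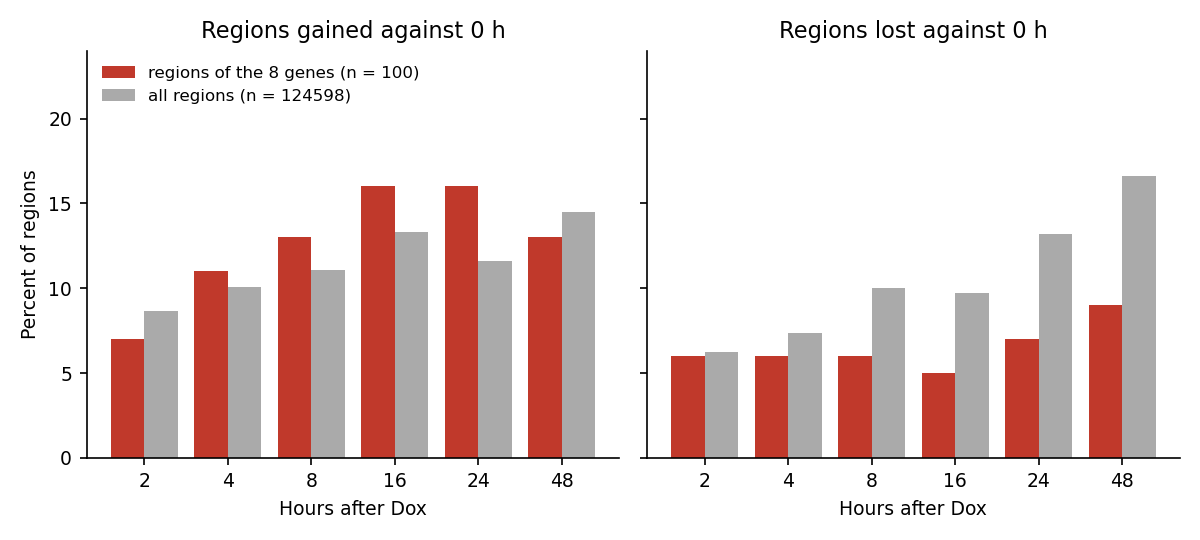
Percent of the 100 member regions (red bars) and of all 124598 regions (grey bars) gained (left) or lost (right) against 0 h at each time point, in hours after Dox. At 48 h 13 member regions were gained and 9 lost, against 14.5% and 16.6% of all regions.

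Promoter regions of both maintenance genes were called in every library. The Dnmt1 promoter region (chr9:20952080-20953336), which covers UTR and coding sequence, was called in all 14 libraries at score percentiles of 87.3 and 91.6 at 0 h and 81.0 and 83.8 at 48 h. A percentile here is the rank of a region's highest peak score within its own library's list, with 100 the highest. Its trend with time was not significant (correlation with time rank -0.19, adjusted p = 0.631 by a permutation test with Benjamini-Hochberg adjustment over 18809 regions called in all libraries). A further 300 bp RefSeq promoter window of Dnmt1, upstream of it (chr9:20959839-20960138), was overlapped by 0 regions. The 4 distal Dnmt1 regions, all intronic, were called in 3 or fewer at a time, and none was gained or lost at 48 h. Those at +24592 bp (chr9:20927841-20928186) and +6428 bp (chr9:20946063-20946292), named after their values were seen, were called in both libraries of 2 h and of 16 h, respectively, and in none of 0 or 48 h. Distal calls of Dnmt1 were 1 and 1 at 0 h and 0 and 1 at 48 h without a detected trend (correlation -0.28, adjusted p = 0.549, permutation test), but fell when only the 50000 highest peaks of each library were kept (correlation -0.71, adjusted p = 0.0407).

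Uhrf1 had promoter regions only, both overlapping UTR sequence and called in all 14 libraries. At 48 h their percentiles lay on opposite sides of those at 0 h. The region at -15 bp (chr17:56304011-56304656) had percentiles of 75.4 and 81.9 at 0 h, 89.0 and 87.4 at 8 h, 88.3 and 93.5 at 24 h, and 90.7 and 92.6 at 48 h. Both 48 h libraries lay above both 0 h libraries, and its percentile rose (correlation 0.75, adjusted p = 0.0112, permutation test). With base pairs covered in place of the percentile, the correlation changed sign. The region at +13 bp of the more upstream start (chr17:56303109-56303718) had percentiles of 77.4 and 81.7 at 0 h, between 74.7 and 86.4 from 2 to 24 h, and 26.6 and 37.2 at 48 h. The 48 h libraries lay far below the other 12, but the trend over all time points did not pass (correlation -0.58, adjusted p = 0.0569, permutation test). Over all regions called in every library, 20.8% rose and 12.7% fell in percentile.

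Dnmt3a had the widest swing in the number of distal calls among the methyltransferases. Dnmt1, Dnmt3b and Dnmt3l had only 4 distal regions each, called 0 to 3, 1 to 4 and 2 to 4 at a time. As a share of its distal regions, the swing of Dnmt3a was not the widest. Its 19 distal regions were called 9 and 7 times at 0 h, 5 and 8 at 2 h, 7 and 10 at 4 h, 12 and 13 at 8 h, 14 and 14 at 16 h, 12 and 12 at 24 h, and 7 and 8 at 48 h. The 8 to 24 h libraries lay above all others and the 48 h libraries were back in the range of 0 h, so the test for a steady trend did not pass (correlation with time rank 0.38, adjusted p = 0.344 over 11712 genes, permutation test). Over all genes 11.4% rose and 13.0% fell in distal calls.

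The intronic Dnmt3a region at +2705 bp (chr12:3887978-3888331) was called from 4 h on. It was not called in the 0 and 2 h libraries, and its percentiles were 57.5 and 75.9 at 4 h, 83.6 and 86.0 at 16 h, and 43.4 and 37.2 at 48 h. Its calls rose over time (called in 10 libraries, exact permutation p = 0.002, adjusted p = 0.013 over 79559 regions). Another intronic region, at +5261 bp (chr12:3870828-3872076), was called in all 12 libraries to 24 h, at percentiles of 23.7 to 65.9, and in neither at 48 h. A change in only the 2 libraries of 0 h or of 48 h gives an exact p of 0.022, adjusted to 0.0541, so no such region could pass here. With the 50000 highest peaks of each library this region passed as falling (adjusted p = 0.0477, exact test).

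Dnmt3a has a long form and a short form, Dnmt3a2, made from an internal promoter and prominent in ES cells and germ cells. At the upstream end, the region at -53 bp (chr12:3806258-3806690, UTR) was called in both libraries of 0, 8, 16, 24 and 48 h, and in 1 of 4 at 2 and 4 h, with percentiles of 5.15 and 21.4 at 0 h and 69.0 and 60.5 at 48 h. Both 48 h values lay above those of the other libraries, and its calls did not pass the exact permutation test for a trend (adjusted p = 0.266). Around the internal promoter 3 narrow regions were called at 48 h and in no earlier library. That at +755 bp (chr12:3892423-3892575, intron) was in both 48 h libraries at percentiles of 27.1 and 8.30, that at -400 bp (chr12:3891219-3891438, intron) in replicate 2 at 31.5, and that at +236 bp (chr12:3891794-3892167, UTR) in replicate 1 at 7.90. The upstream 300 bp RefSeq promoter windows of Dnmt3a (chr12:3806730-3807029 and chr12:3806910-3807209) were overlapped by 0 regions. So was the internal window, between the last pair of regions (chr12:3891494-3891793). The intronic region at -1587 bp (chr12:3889668-3890614), the nearest to it called in all libraries, had percentiles of 80.7 and 76.3 at 0 h, 87.4 and 91.7 at 4 h, and 65.6 and 75.3 at 48 h, without a significant trend (adjusted p = 0.448, permutation test). It was named after its values were seen, and without the 0 h libraries it fell (correlation -0.65, adjusted p = 0.0381).

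At Dnmt3b 1 intronic region rose in calls, while the distal calls as a whole showed no detected trend. Its 4 distal regions were called 2 and 2 times at 0 h, 2 and 4 at 16 h and 3 and 3 at 48 h (correlation 0.44, adjusted p = 0.273, permutation test). The intronic region at +11209 bp (chr2:153660492-153661160) was called in neither library of 0, 2 and 4 h, in both of 8 h at percentiles of 8.33 and 1.03, in 1 of 16 h, and in both of 24 h at 33.4 and 33.5 and of 48 h at 46.8 and 65.0. Apart from replicate 1 of 16 h, all libraries from 8 h on called it and none before, and its calls rose (7 libraries, exact permutation p = 0.0035, adjusted p = 0.021). The intronic region at +2277 bp (chr2:153651694-153652094), called in every library, went from 25.3 and 37.0 at 0 h through 8.89 and 20.5 at 2 h to 81.1 and 83.9 at 16 h and 50.0 and 46.9 at 48 h. Its percentile rose (correlation 0.66, adjusted p = 0.0406), but the call was lost without any 1 library of 2, 4, 8 or 24 h or replicate 1 of 0 h, with adjusted p of 0.0267 to 0.0747 over the 14 fits that each left out 1 library. The Dnmt3b promoter region (chr2:153649042-153650582) was called in 13 libraries, at 18.6 and 0.967 at 0 h and 47.7 and 53.7 at 48 h. Upstream, the intergenic region at -6167 bp (chr2:153643040-153643527) was called at 65.9 and 46.6 at 0 h, 0.156 and 0.634 at 2 h and 40.1 and 49.7 at 16 h, and in neither library at 4, 8, 24 and 48 h. The region at +19321 bp (chr2:153668815-153669061) was called in neither 0 h library, in 5 of the 10 libraries from 2 to 24 h and in both of 48 h, and did not pass the exact trend test (adjusted p = 0.266).

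Dnmt3l, the stimulating partner, rose in distal calls. Its 4 distal regions were called 2 and 2 times at 0 and 2 h, 3 and 3 at 4 and 8 h, 3 and 4 at 16 and 24 h, and 3 and 3 at 48 h. No library from 4 h on fell to the level of 0 h, and the calls rose (correlation with time rank 0.73, adjusted p = 0.0284, permutation test over 14 libraries). Spearman's rho was 0.75 (permutation p = 0.00224), and Pearson's r with hours was 0.46 (permutation p = 0.0918), or 0.77 (permutation p = 0.0041) without the 2 libraries of 48 h, the farthest in time. The call was lost when only the 5′ end of each gene counted as a TSS (correlation 0.14), when a call needed 50% coverage of a region (adjusted p = 0.169), when base pairs covered replaced calls (adjusted p = 0.272) and when the 0 h libraries were left out (adjusted p = 0.15), so within serum the rise did not pass. It was also lost without either 0 h or either 2 h library (adjusted p up to 0.0528).

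The region at +1285 bp of Dnmt3l (chr10:78056347-78056893), over UTR and coding sequence, was the late part of that rise, and that at -4879 bp in an intron of Aire (chr10:78037186-78037630), called from 4 to 24 h and named after its values were seen, the early part. The former was called in no library before 16 h, in 1 of 16 h at a percentile of 6.72, and at 48.3 and 62.1 at 24 h and 56.2 and 63.8 at 48 h. The 4 libraries of 24 and 48 h stood apart from the rest (exact permutation p = 0.002, adjusted p = 0.013), also without the 0 h libraries (adjusted p = 0.0254). The promoter region at -40 bp (chr10:78049411-78050194) was called in 1 of the 0 h libraries at 6.40 and in all others, reaching 81.5 and 79.9 at 24 h and 78.6 and 74.3 at 48 h. The promoter region at -46 bp of an internal transcript (chr10:78054836-78055743) was called throughout, with a peak at 16 h (93.1 and 94.4) between 56.9 and 60.4 at 0 h and 62.6 and 53.1 at 48 h, and its trend did not pass (adjusted p = 0.664, permutation test). One more promoter region, at -584 bp (chr10:78049140-78049377), was called only in replicate 2 of 48 h. The most upstream 300 bp RefSeq promoter window of Dnmt3l (chr10:78042037-78042336) was overlapped by 0 regions.

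**Figure D3:**
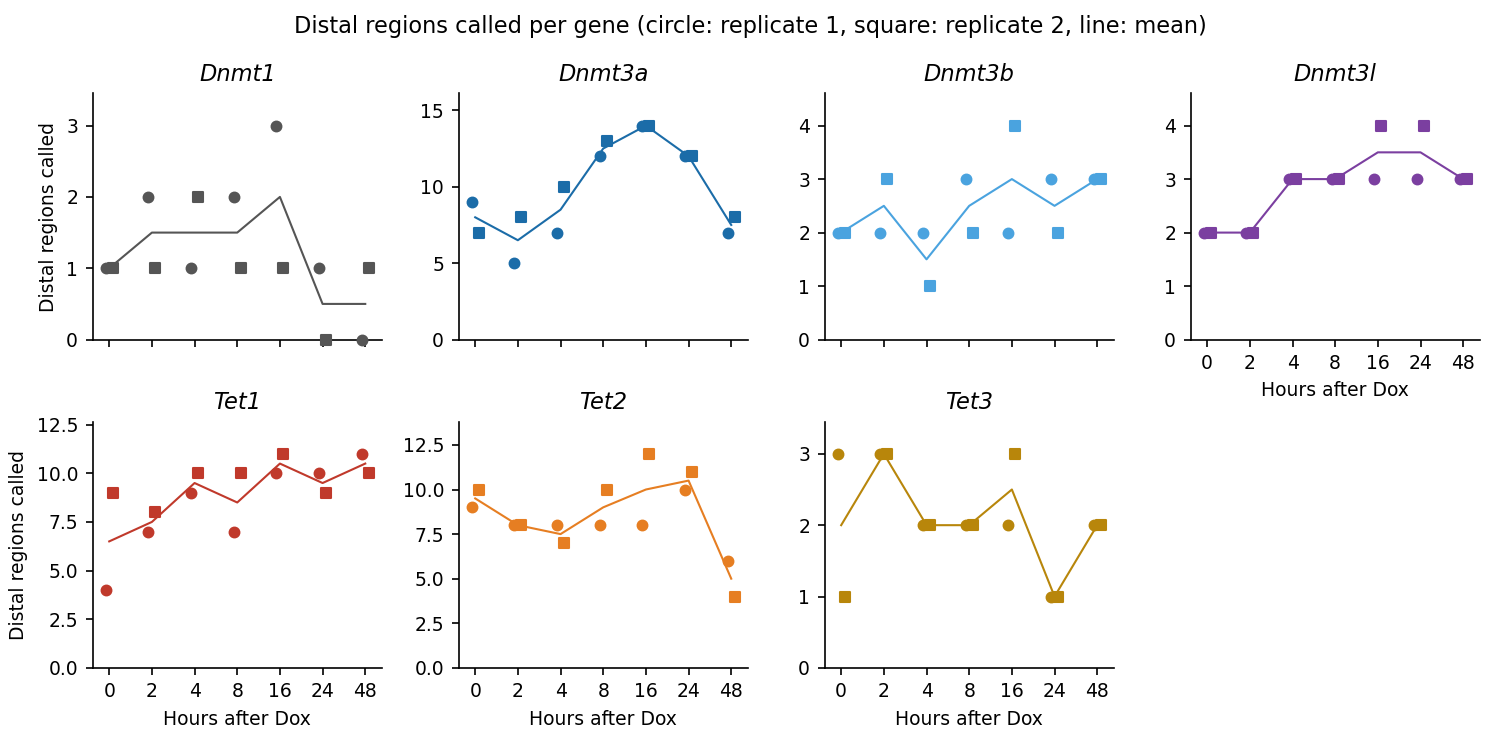
Number of distal regions called per gene (y axes, each from 0) in each library by hours after Dox, with circles for replicate 1, squares for replicate 2 and lines through the means. Dnmt3a rises to 14 and 14 at 16 h and returns to 7 and 8 at 48 h, and Tet2 drops to 6 and 4 at 48 h.

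Tet1 gained distal regions at several places in its introns. Its 21 distal regions were called 4 and 9 times at 0 h, 7 and 8 at 2 h, 9 and 10 at 4 h, 7 and 10 at 8 h, 10 and 11 at 16 h, 10 and 9 at 24 h, and 11 and 10 at 48 h. The 0 h libraries differed widely, and the upper of them overlapped later ones. The calls rose (correlation with time rank 0.66, adjusted p = 0.0376, permutation test over 14 libraries), with Spearman's rho of 0.69 (permutation p = 0.00817) and Pearson's r with hours of 0.55 (permutation p = 0.0429), or 0.52 (permutation p = 0.0788) without the 2 libraries of 48 h. The adjusted p was 0.116 for hours in place of ranks, 0.103 without the 0 h libraries, 0.141 with 50% coverage, and 0.129 for a limit of 20 kb, and the correlation was 0 when only the 5′ end of each gene counted as a TSS. The call was also lost without replicate 1 of 0, 2, 24 or 48 h or replicate 2 of 2 or 48 h (adjusted p up to 0.0995).

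The Tet1 regions at +1688 bp (chr10:62906950-62907666) and +24873 bp (chr10:62854776-62855506), both intronic, were among the earliest to gain calls. The first was absent from both 0 h libraries and reached percentiles of 83.2 and 70.4 at 2 h, 97.1 and 97.6 at 4 h and 89.5 and 84.3 at 48 h. The second was likewise absent at 0 h and reached 48.3 and 53.6 at 2 h and 87.2 and 89.2 at 48 h. Each window held 2 GATA hexamers, and each region was called in all 12 libraries after 0 h, a pattern that the exact trend test could not pass (adjusted p = 0.0541). With the 50000 highest peaks of each library both passed as rising (adjusted p = 0.0477, exact test).

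At -32646 bp of Tet1 (chr10:62847037-62847336, intron) calls began at 4 h, with percentiles of 35.3 and 53.8 there, 55.5 and 60.4 at 16 h and 28.9 and 51.4 at 48 h. All 10 libraries from 4 h on called it and none before, and its calls rose (exact permutation p = 0.002, adjusted p = 0.013). The region at +1176 bp (chr10:62885763-62886533, intron) was called in 1 library of 2 h and in all later ones, reaching 54.8 and 52.5 at 48 h (11 libraries, exact permutation p = 0.011, adjusted p = 0.0451). This call was lost without any 1 library of 0, 4, 8 or 16 h or replicate 1 of 2 h (adjusted p up to 0.0856) and where at least 50% of the region had to be covered (adjusted p = 1 by the same exact test), with regions merged within 100 bp (0.207) and with the 50000 highest peaks (0.0788). The region at +2584 bp (chr10:62884624-62884857, intron) was in no library of 0 and 2 h and reached 69.7 and 64.2 at 48 h, and just missed the threshold (adjusted p = 0.0546, exact permutation test). In the other direction, the region at +2472 bp (chr10:62906264-62906785, intron) was at 76.3 and 80.9 at 0 h, at 14.1 in 1 library of 4 h and called in no other library. The last pair were named after their values were seen.

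The promoters of Tet1 diverged. The region at +69 bp of the start that RefSeq also lists (chr10:62886813-62887697, UTR) had percentiles of 55.5 and 24.9 at 0 h, 8.78 and 2.05 at 2 h, 40.4 and 42.9 at 4 h, 77.8 and 64.7 at 16 h, and 75.6 and 87.1 at 48 h. The libraries of 16 to 48 h lay above all earlier ones, and its percentile rose (correlation 0.81, adjusted p = 0.00517). The region at -153 bp of a start further upstream (chr10:62892620-62893659, UTR) moved the other way, from 78.6 and 91.6 at 0 h through 82.8 and 85.9 at 4 h, 56.9 and 63.7 at 8 h and 17.8 and 14.9 at 24 h to no call in either 48 h library. Its 12 calls are all before 48 h, which the trend test could not pass, though with 50% coverage it passed as falling (adjusted p = 0.0496, exact test). The region at +881 bp of the next start upstream (chr10:62898045-62898430, intron) was called in both 0 h libraries at 31.1 and 39.8, in 3 of the libraries between and in none of 24 and 48 h. In all, 2 of 19 member promoter regions were lost at 48 h and 1 was gained, against 5.3% and 9.04% of 20354 promoter regions, so these are counts of a few regions. Distal to these starts, the region at -3917 bp (chr10:62902870-62903201, intron) fell from 60.3 and 52.1 at 0 h to 12.3 and 27.6 at 48 h (correlation -0.64, adjusted p = 0.0273), and the call was lost without any of the 4 libraries of 24 and 48 h (adjusted p up to 0.134).

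**Figure D4:**
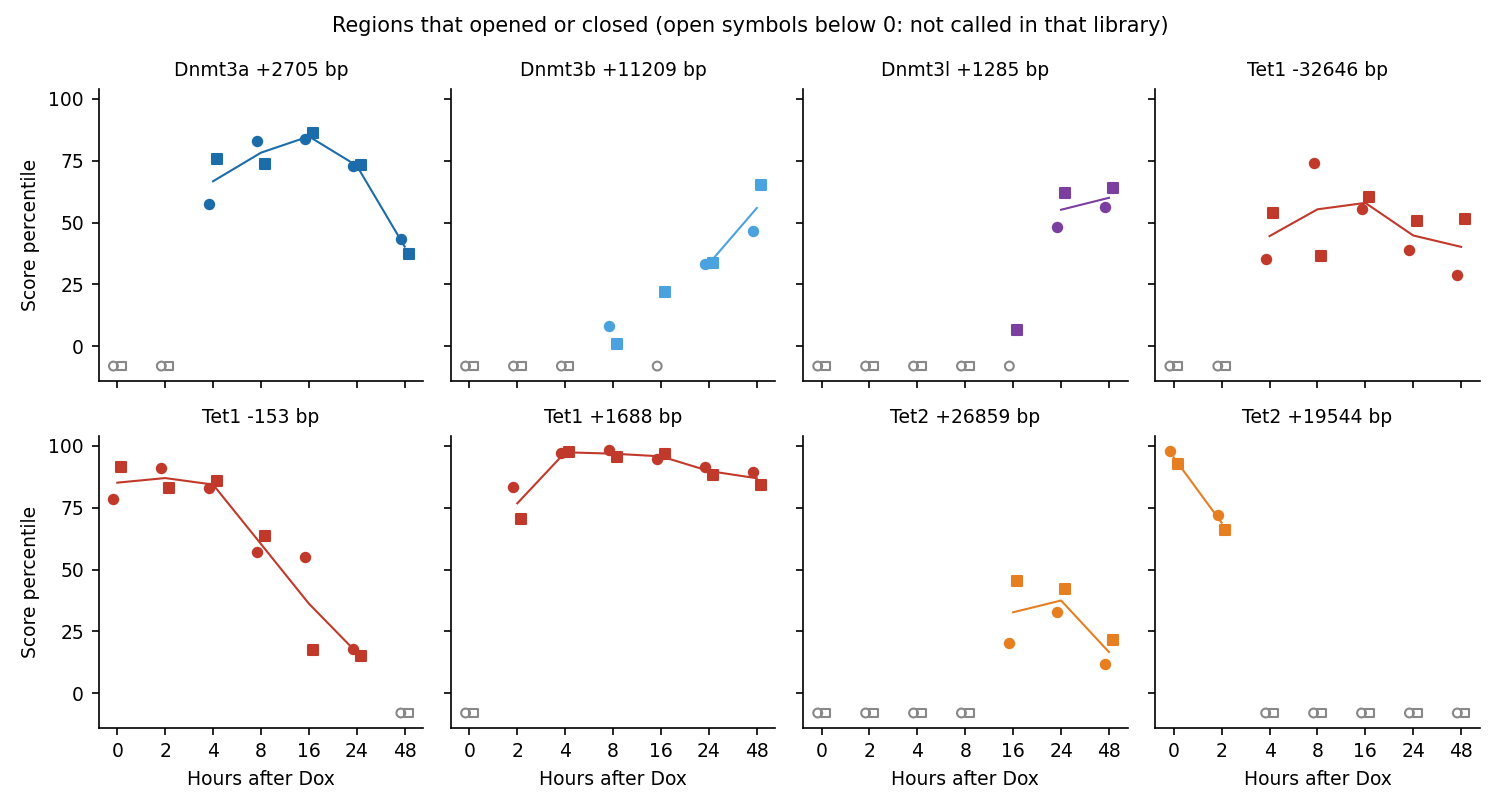
Score percentile within each library (y axis, 0 to 100) against hours after Dox for 8 regions, named by gene and distance to the TSS, with circles for replicate 1, squares for replicate 2, lines through means and open symbols below 0 where a region was not called. The Tet1 promoter region at -153 bp falls from 78.6 and 91.6 at 0 h to no call at 48 h, and the Tet1 region at +1688 bp is called from 2 h on.

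Tet2 lost some intronic and upstream regions early and kept its promoters. At 48 h it had lost 4 of 23 distal regions, a share near the 17.5% of all distal regions. It had gained 1 of the 23, against 15.7%. The intronic region at +19544 bp (chr3:133524398-133525251) had percentiles of 97.8 and 92.8 at 0 h and 72.0 and 65.9 at 2 h and was called in no later library. It was among the highest ranked member regions before induction, and its calls fell (4 libraries, exact permutation p = 0.002, adjusted p = 0.013). The regions at +25523 bp (chr3:133518557-133519133, intron) and -45681 bp (chr3:133590425-133591216, intergenic) were each called in both 0 h libraries and 1 of 2 h, at 46.7 and 50.6 and at 66.4 and 74.5 at 0 h. Their calls fell (3 libraries each, exact permutation p = 0.011, adjusted p = 0.0451), and both calls were lost without any 1 library of 0, 4, 8 or 16 h or replicate 1 of 2 h (adjusted p up to 0.0856). The first was also lost with regions merged within 100 bp (adjusted p = 0.214) and the second with 50% coverage (adjusted p = 0.0591), by the same exact test. The intronic region at +26859 bp (chr3:133517307-133517712) lay between the regions whose calls fell and the 3′ end of the gene. It was called in none of the 8 libraries to 8 h and in all 6 from 16 h. Its percentiles were 20.1 and 45.3 at 16 h and 11.8 and 21.4 at 48 h. Its calls rose (exact permutation p = 0.000666, adjusted p = 0.013), also without the 0 h libraries (adjusted p = 0.0254). One more lost region, at -32360 bp (chr3:133577264-133577735), was in the 0 h libraries only, at 18.4 and 9.61.

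Over its 23 distal regions, Tet2 was called 9 and 10 times at 0 h, 8 and 8 at 2 h, 8 and 7 at 4 h, 8 and 10 at 8 h, 8 and 12 at 16 h, 10 and 11 at 24 h and 6 and 4 at 48 h. The 48 h libraries lay below the other 12, and no steady trend was detected (correlation -0.22, adjusted p = 0.65). Some regions were called only in between. The region at -18984 bp (chr3:133563607-133564640), within an intron of Gm42567 and named after its values were seen, was not called at 0 and 48 h. Its percentiles were 88.1 and 89.5 at 2 h, 97.5 and 97.9 at 4 h, 97.9 and 95.6 at 8 h, 70.5 and 54.5 at 16 h and 31.6 and 20.1 at 24 h. Among all member regions 14 were called in both libraries of a time point in between and in no library of 0 or 48 h. Of these 5 were at Tet2, and the share over all regions was 13.9%. The promoter regions at +183 bp (chr3:133543890-133544481, UTR) and +203 bp (chr3:133544574-133545299, UTR) rose in percentile, the first from 35.8 and 44.1 at 0 h to 74.3 and 74.0 at 48 h (correlation 0.84, adjusted p = 0.0038) and the second from 27.0 and 11.8 to 61.7 and 59.1 (correlation 0.66, adjusted p = 0.0271). In the second, the 2 h libraries were already at 54.1 and 62.8, and without the 0 h libraries its trend did not pass (adjusted p = 0.374), nor without either 0 h library, either 24 h library or replicate 1 of 48 h (adjusted p up to 0.102, permutation test). With base pairs covered in place of the percentile, the correlation of the second changed sign.

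Tet3 changed in the rank of its constitutive regions. The promoter region at -57 bp (chr6:83441262-83442202, UTR and coding exon) went from 53.3 and 67.5 at 0 h and 42.7 and 30.4 at 2 h to 82.6 and 84.4 at 24 h and 83.2 and 84.4 at 48 h, and its percentile rose (correlation 0.76, adjusted p = 0.0104). The intronic region at +19512 bp (chr6:83421689-83422637) went from 93.3 and 92.3 at 0 h to 79.8 and 84.6 at 24 h and 34.2 and 30.7 at 48 h, and fell (correlation -0.71, adjusted p = 0.00164). The 48 h libraries were far below all others there. A promoter region at -338 bp of an upstream start (chr6:83455982-83457478, UTR) was called in 1 library of 8 h, both of 16 h and 1 each of 24 and 48 h, never above a percentile of 24.0, and the promoter region at +638 bp (chr6:83440838-83441236) in 1 library of 16 h and both of 24 h. Neither passed the exact trend test (adjusted p = 0.164 and 0.266). The intergenic region at -8804 bp (chr6:83467605-83468171) was gained at 48 h, at 57.7 and 61.0, and had been called before in 1 library of 16 h at 4.21. The 6 distal regions together were called 1 to 3 times in every library without a detected trend (correlation -0.36, adjusted p = 0.409).

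**Figure D5:**
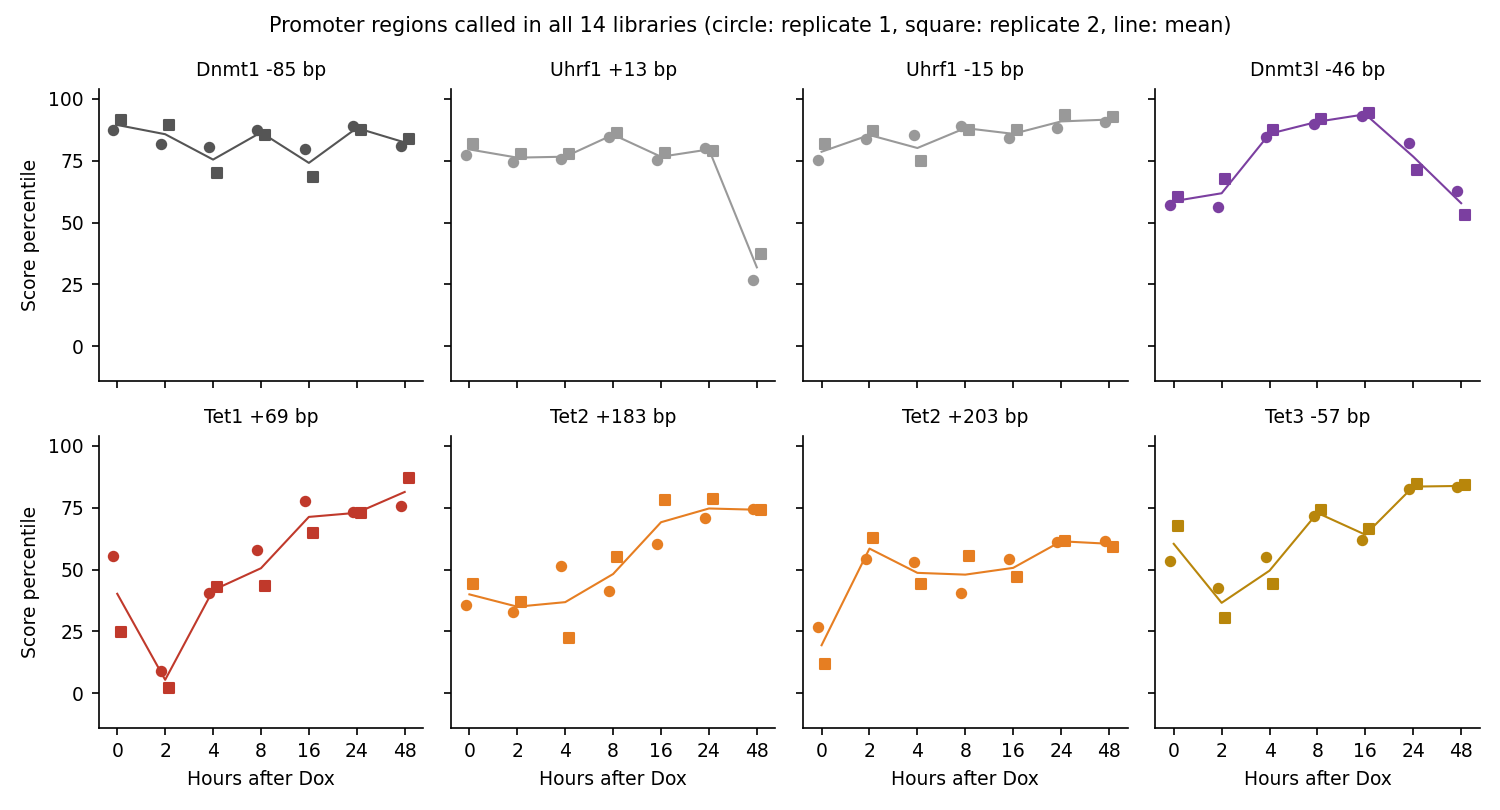
Score percentile within each library (y axis) against hours after Dox for the 8 promoter regions called in all 14 libraries, with circles for replicate 1, squares for replicate 2 and lines through means. The Uhrf1 region at +13 bp falls to 26.6 and 37.2 at 48 h, while the Tet1 region at +69 bp reaches 75.6 and 87.1.

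Across the members, 57 regions were called in 2 to 12 libraries and could be tested for a trend of calls. Of these 6 rose and 3 fell, where 12.1% of 79559 tested regions rose and 12.3% fell. All 9 were distal, as were 51 of the 57 tested. At an unadjusted exact p under 0.05 there were 21 of 57, and 37067 of 79559 over all regions, a larger share. Within serum, without the 0 h libraries, the exact test called 2 rising (Dnmt3l at +1285 bp and Tet2 at +26859 bp) and 1 falling (Tet3 at -1203 bp, chr6:83442548-83443209, called from 2 to 16 h only), while the adjusted p was 0.0605 for Dnmt3b at +11209 bp and 0.0622 for Dnmt3a at +2705 bp, Tet1 at -32646 bp and Tet2 at +19544 bp. Among the 18 member regions called in all libraries (8 of 19 promoter and 10 of 81 distal regions, where 48.5% of all promoter and 9.86% of all distal regions were), 6 rose in percentile and 2 fell. Over all regions called in every library, 20.8% rose and 12.7% fell. Of the 6 members that rose, 5 were promoter regions, at Uhrf1, Tet1, Tet2 and Tet3, and both that fell were intronic, at Tet1 and Tet3. The same split over all regions is not given, so it cannot be called particular to these genes. The median correlation with time rank was 0.332 over these 18 regions and 0.221 over all 18809. The percentile ranks a region within a list whose other members also change, so a rise is a rise in rank. When base pairs covered were used in place of the percentile, 0 of the 18 regions rose or fell.

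A GATA hexamer was present in 7 of the 12 distal member regions gained at 48 h, in 2 of the 7 lost and in 29 of all 81, against 60.0%, 21.7% and 38.1% of distal regions gained, lost and overall. The octamer core was in 6 of the 81, the AP-1 site in 8 and the Esrrb site in 4. Over all distal regions the shares were 5.47%, 12.6% and 6.02%. A match is a description of the letters in the window.

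The genes with the most similar course of distal calls over the 14 libraries, among 5662 genes with at least 5 distal regions, were St3gal2 (Pearson's r = 0.964) and Srrm3 (0.92) for Dnmt3a. They were a, the nonagouti gene (0.824), and Jade1 (0.816) for Tet1, Uri1 (0.85) and Stac2 (0.825) for Tet2, and Zfp706 (0.865) and Pex5l (0.813) for Tet3. These are the highest of many values over libraries that share their depth, and are given as a description.

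Genes that act beside the enzymes were read in 4 lists. Of 10 genes listed as readers of methylated DNA, 5 could be tested for distal calls. None rose or fell at an adjusted p of 0.05 by the permutation test (unadjusted, 0 at a p under 0.05). Of the 64 regions of the list, 1 was gained and 12 were lost at 48 h. The lost ones included 1 of 3 promoter regions of Mbd3, part of the NuRD complex, and 1 of 2 of Zbtb4. Of 13 genes for repair and removal of modified cytosine, 8 could be tested, and 3 rose and none fell, with 16 of 77 regions gained and 9 lost. By the permutation test, Gadd45b had 5 and 5 distal regions called at 0 h and 8 and 8 at 48 h (adjusted p = 0.0161), Smug1, a uracil glycosylase, 7 and 7 then 10 and 7 (adjusted p = 0.0371), and Xrcc1, a scaffold of base excision repair, 1 and 1 then 2 and 2 (adjusted p = 0.0123). Promoter regions of Gadd45a and Gadd45b were gained and 1 of Gadd45g was lost.

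Of 19 partners and regulators, 14 could be tested, and Kdm2b and Dnmt3c rose and Cdca7 fell. Dnmt3c, a de novo methyltransferase of male germ cells that lies next to Dnmt3b, went from 0 and 0 calls at 0 h to 2 and 2 of its 4 distal regions at 48 h (adjusted p = 0.0246, permutation test). Cdca7, which brings the remodeller Hells to chromatin, went from 3 and 4 to 1 and 1 (adjusted p = 0.00206, permutation test), and Kdm2b, a CpG-binding Polycomb subunit, from 10 and 9 to 11 and 12 (adjusted p = 0.0213). Promoter regions were gained at Cxxc5 (2), Usp7, Kdm2b, Nsd1 and Trim28, and none was lost. Of 11 genes for methyl donor supply, 7 could be tested by permutation, and among them Shmt1, a serine hydroxymethyltransferase, rose from 0 and 0 to 2 and 2 (adjusted p = 0.00956). For all 4 lists the counts of genes stand beside the 11.4% of genes that rose and 13.0% that fell. The counts of regions stand beside the 14.5% of all regions gained and 16.6% lost at 48 h. Those of promoter regions, of which the lists held 14, 18, 28 and 16, stand beside 9.04% gained and 5.3% lost.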

How the data were processed

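Chromatin accessibility was measured by ATAC-seq in 14 libraries, 2 at each of 7 time points, grouped by the time point in their labels. Each library has its own peak list, which the authors produced with the pipeline of ENCODE for ATAC-seq. Its name shows pseudoreplicate filtering at an irreproducible discovery rate of 0.05 and removal of blacklisted sites, without pooling of replicates. Each deposited peak carries 1 unnamed score on an unstated scale, which was used only to rank peaks within its list. The lists hold no reads, so depth is not analysed here and no interval is given, and the read-count comparison that the study's methods describe was not possible here. The submitters' processing notes name mm10, GRCm38 and deepTools, and 0 of 839049 peaks ended past a GRCm38 chromosome.

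Peaks overlapping by at least 1 bp were merged over libraries, any overlap with a peak (1 bp or more) counted as a call in that library, and regions were assigned to the nearest TSS of a protein-coding transcript (GENCODE vM21) within 50 kb. Trends of calls used an exact two-sided permutation test per region of the summed time ranks of the calling libraries, for regions called in 2 to 12 libraries. Distal calls per gene and score percentiles used two-sided permutation tests with 100000 shuffles of the correlation of time rank with the value (smallest possible p 1e-05). Benjamini-Hochberg adjustment was over all regions or genes tested, at 0.05. Scripts were tested on simulated data. The members and gene lists were chosen with earlier results of these data known. Named are all promoter regions of the 8 genes, their regions with a trend, up to 4 per gene gained or lost at 48 h, the 2 most similar genes of each gene with at least 5 distal regions, and listed genes with a trend or with a promoter region gained or lost. Some results for listed genes are not reported here. Alternatives were the 50000 highest peaks per library, 50% coverage of a region, merging within 100 bp, other TSS and promoter rules, base pairs covered, a replicate block, and leaving out the 0 h libraries, a replicate number or single libraries. Deviations of libraries with the same replicate number were uncorrelated (-0.0163 to 0.0124 over 21 pairs of time points), although replicate 2 had more peaks at 7 time points and more member regions called at 6. Python 3.11.15, numpy 2.4.6, pandas 2.3.3, pysam 0.24.0, samtools 1.23.1 and matplotlib 3.10.9 were used.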

Additional observations from a re-analysis of the deposited data

Results flagged for a closer look

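In 7 regions called in all libraries, the score percentile of both libraries exceeded both 0 h values at 1 to 5 time points and was under both at 1 time point (5 for the Tet1 region at +14465 bp), and the difference between those time points was not tested. Means are given relative to the mean at 0 h, in percentile points. The Dnmt3b region at +2277 bp was 51.4 higher at 16 h and -16.4 at 2 h, the Tet3 promoter region at -57 bp 23.4 at 48 h and -23.9 at 2 h, and the Tet1 promoter region at +69 bp 41.2 at 48 h and -34.8 at 2 h. The Tet1 region at +14465 bp, above 0 h at 1 time point and below it at the other 5, was 3.37 higher at 16 h and -33.1 at 2 h. The Tet1 region at -3917 bp was 14.5 higher at 2 h and -36.2 at 48 h, the Dnmt3a region at -1587 bp 11.1 at 4 h and -8.04 at 48 h, and the Uhrf1 promoter region at +13 bp 5.98 at 8 h and -47.7 at 48 h. With 2 libraries per time point, no library was tested as lying apart from its group.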

How the results depend on the processing

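Of 1365 alternative values for 74 results, 262 of the counts stayed within 1.5 times and 80 did not, and of the values for single regions and genes 873 kept direction and side of the threshold, 106 lost the call, 28 gained it and 16 reversed. The causes were not tested. Where a call in at least 1 library of a time point sufficed, gained and lost members were 15 and 16 at 2 h, 24 and 15 at 8 h, 32 and 14 at 16 h and 24 and 21 at 48 h, with 15 lost at 4 h and 17 at 24 h, and 28775 and 31921 over all regions at 48 h. Within 20 kb of a TSS, 4, 7 and 10 were gained at 2, 4 and 16 h and 3, 3, 2 and 4 lost at 4, 8, 16 and 24 h, and with 1 TSS per gene 7 were gained at 48 h. With the 50000 highest peaks, 15933 regions rose and 15433 fell in calls (members 11 and 6), and 3 members rose in percentile. Without the 0 h libraries 5282 regions rose, with 2 members rising and 1 falling. With 50% coverage 2317 regions rose and 1354 fell in percentile (2 members rising). With base pairs covered 2672 genes fell, 981 regions rose, and 0 members rose and 0 fell.

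Leaving out replicate 1 or 2, members gained were 11 to 14 at 2 h, 15 to 16 at 4 h, 18 to 22 at 8 h, 21 to 32 at 16 h, 22 to 23 at 24 h and 18 to 22 at 48 h, and lost 14 to 15, 12 to 15, 11 to 12, 9 to 12, 11 to 15 and 16 to 20. All regions gained at 48 h were then 25438 to 26235 and lost 27791 to 28669. With 7 libraries 0 genes and 0 regions passed in distal calls or percentile at the adjusted p of the permutation test (genes at an unadjusted p under 0.05: 794 rising and 894 falling without one number, 820 and 868 without the other), and the exact test of calls cannot pass. Leaving out 1 library gave 13 to 20 members gained at 48 h (20 without 48 h replicate 1) and 11 to 16 lost, 19586 to 24335 and 21955 to 27041 of all regions, 7392 to 13785 regions rising and 7192 to 13392 falling in calls, 5 to 10 members rising (10 without 48 h replicate 2) and 1 to 4 falling (1 without a library of 4, 8 or 16 h or 2 h replicate 1), 1109 to 1324 genes rising and 1186 to 1596 falling, and 2848 to 4307 regions rising and 1939 to 2408 falling in percentile (members 4 to 6 and 1 to 3).

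The reversed correlations belonged to results that were not called, except those of the Tet2 region at +203 bp and the Uhrf1 region at -15 bp. They were 0.032 (within 20 kb) and 0.0837 (without 48 h replicate 2, in a range from -0.339 on leaving out 1 library) for Tet2 distal calls and 0.1995 (1 TSS per gene) for Tet3. With base pairs covered they were -0.468 for Tet2 +203 bp, -0.466 for Uhrf1 -15 bp, -0.29 for Tet1 +14465 bp, -0.352, -0.58 and -0.48 for Dnmt3l -13906, -1369 and -46 bp, and 0.438 for Dnmt3a -1587 bp. Without the 0 h libraries they were 0.0702 for Dnmt1 -85 bp and -0.302 and -0.152 for Dnmt3l -1369 and -46 bp. Single left-out sets gave -0.115 for Dnmt3l -1369 bp (without 0 h replicate 1, in a range to 0.428), -0.0363 for Dnmt3l -46 bp (without replicate 1, in a range to 0.426) and 0.0423 for Dnmt3a -1587 bp (without 48 h replicate 1, in a range from -0.491).

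Whether the replicate numbers pair the libraries is not stated. With the number as a block, 7548 regions rose and 7263 fell in calls, with 5 members rising and 1 falling. In distal calls 1181 genes rose and 1348 fell. In percentile 3614 regions rose and 2216 fell, with 5 members rising and 2 falling. The adjusted p was then 0.0555 for Tet1 +1176, Tet2 +25523 and Tet2 -45681 bp and 0.0544 for Dnmt3b +2277 bp. The lists give no depth, which limits every count of missing calls.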
